A study of Mus musculus with 5 samples.

Results

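The genes described here are 7 regulators of the intrinsic, or mitochondrial, pathway of apoptosis, measured in mouse retina by 28 probe sets of a whole-genome Affymetrix array. They were taken by gene name from a fixed set of 9 genes, as every probe set whose platform annotation gives exactly 1 of those names; 2 of the 9 genes are not analysed here. The array covers 18193 genes with a listed probe set. The pro-apoptotic genes are Bcl2l11, Bak1, Apaf1 and Casp9, and the anti-apoptotic genes are Bcl2, Bcl2l1 and Xiap.

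Total retinal RNA was measured in 5 pools of mice, 1 array each. Diabetic replicates 1 and 2 each held 4 retinas from 2 mice that had been diabetic for 5 weeks after streptozotocin, which destroys pancreatic beta cells. Diabetic replicate 3 consisted of 6 retinas from 3 mice with experimentally induced diabetes of 3 to 4 weeks. Each of the 2 control pools held 4 retinas from 2 untreated mice of the same age with normal blood glucose. Strain, sex and age in weeks are not given in the labels, and whole retinas were pooled, so the values average over all retinal cell types. In such bulk RNA, fewer cells of a type and less RNA per cell cannot be told apart.

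In this pathway, Bcl-2 family proteins decide whether the outer mitochondrial membrane is opened. BH3-only proteins such as Bim release the effectors Bak and its relatives from inhibition by Bcl-2 and Bcl-xL. Cytochrome c that leaves the mitochondrion assembles with Apaf-1 into the apoptosome, which activates caspase-9, while XIAP binds and inhibits caspases. Loss of neurons by apoptosis has been described in the retina of rodents made diabetic with streptozotocin, which is the setting in which these transcripts are of interest.

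Signals are given as deposited, on a linear scale on which each array has the same trimmed mean. Differences are diabetic minus control on the scale log2(signal + 120.6), which understates the change of dim probe sets. At the gene level, the probe set with the highest mean signal stands for the gene. The test was limma over the 10916 genes in the upper 60% by mean signal, and 6 of the 7 regulators lay among them; Bak1 was too dim and has no test at the gene level. A second limma fit over the 27022 probe sets in the upper 60% held 20 of the 28 probe sets. None of the regulators passed an adjusted p of 0.05 in either fit. This is read against a background of 0% of genes and 0% of probe sets passing. An unadjusted p under 0.05 was reached by 364 genes (3.33%) and 779 probe sets (2.88%), among them 2 probe sets of Xiap and none of the 6 tested regulators at the gene level. Probe sets of a gene share its transcripts and the same 5 RNA pools, so they are not independent of each other, and signals of different probe sets are not comparable as levels.

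Of the apoptosome and its inhibitor, Xiap had a lower mean signal in diabetic pools in each of its 7 probe sets, with the groups overlapping in 4 of them, and Apaf1 was higher in its brightest probe set, but neither difference passed the test. Xiap encodes the X-linked inhibitor of apoptosis protein, which blocks caspase-9 and the executioner caspases. The gene lies at chrX:42059613-42109664 (GRCm38.p6). The 250 bases before 1 of its 3 annotated start sites are shown because a Xiap probe set had the largest difference among the 20 tested, with the GC box (GGGCGG, read on both strands) in capitals.

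Xiap promoter, chrX:42068148-42068397, plus strand: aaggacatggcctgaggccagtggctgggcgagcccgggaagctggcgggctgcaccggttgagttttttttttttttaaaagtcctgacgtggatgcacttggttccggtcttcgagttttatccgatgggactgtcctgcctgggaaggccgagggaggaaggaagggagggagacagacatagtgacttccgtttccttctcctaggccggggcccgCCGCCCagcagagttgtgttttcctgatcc

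Of Xiap's 5 tested probe sets, the one at the third rank by brightness (1453385_at) had signals of 1661, 1720 and 1417 in the diabetic pools and 2135 and 2352 in the control pools. All 3 diabetic pools lay below both controls. The difference was -0.46 (SE 0.15, 95% interval -0.81 to -0.11, unadjusted p = 0.0157, limma adjusted p = 0.99996). Leaving out single arrays kept it between -0.53 and -0.38.

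The probe set 1456088_at of Xiap had 4733, 4838 and 5557 in diabetic pools and 6196 and 5931 in control pools, again with no overlap, and differed by -0.26 (SE 0.11, 95% interval -0.52 to -0.0033). A dimmer one, 1426636_a_at, had 460.9, 433.5 and 403.2 in diabetic pools against 572.1 and 544.5 in control pools, a difference of -0.30 (95% interval -0.83 to 0.24). Among the 20 tested probe sets of the regulators, 5 had all diabetic pools below both controls, 3 of them of Xiap, where 9.03% of all tested probe sets did. In 1 of the 20, of Apaf1, all diabetic pools lay above both controls, where 8.18% of all tested probe sets did.

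Markers of the retinal pigment epithelium, the pigmented layer next to the photoreceptors, were split between the groups in the same way. The summed signal of the 8 markers was 54180, 80030 and 53526 in diabetic pools and 99279 and 145562 in control pools. Most of it was Ttr, at 40717, 64634 and 41264 in diabetic pools and 76823 and 101561 in control pools. Melanosome markers did not split by group, with sums of 23636, 3531 and 15094 in diabetic pools and 5966 and 20269 in control pools. Of the 7 pigment epithelium markers tested, all had lower means in diabetic pools, 6 without overlap. An unadjusted p under 0.05 was reached by 6, and none passed (limma adjusted p of 0.999 or more). Their median difference was -1.22, and -1.76 to -0.72 with single arrays left out. The part of pigment epithelium cells in the values of the regulators was not tested.

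The brightest Xiap probe set, 1437533_at, stands for the gene in the gene-level fit and was drawn from the same sequence record as 1456088_at. It was very bright, and its annotation could not be checked without probe sequences, so the gene-level Xiap value and the balances that include it carry this doubt. It had 50004, 48736 and 52766 in diabetic pools and 55657 and 52244 in control pools, and diabetic replicate 3 lay above control replicate 2. Its difference of -0.10 (SE 0.07, 95% interval -0.25 to 0.06, limma adjusted p = 0.999) was smaller than that of the other tested Xiap probe sets. With 1456088_at in its place the Xiap difference was -0.26. Under quantile normalization, centring on array medians, either other pseudocount and each single array left out, all 5 tested Xiap probe sets kept a difference below 0. The 2 dimmer ones did not, with up to 0.14 for 1421394_a_at and 0.04 for 1450231_a_at when a single array was left out. In 1450231_a_at diabetic replicate 3 was the highest of the 5 arrays.

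Apaf1, at chr10:90989311-91082743, encodes the scaffold of the apoptosome. The 250 bases before its start are shown with GC boxes in capitals, beside Xiap because the genes act on the same caspase and had differences of opposite sign.

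Apaf1 promoter, chr10:91082744-91082993, minus strand: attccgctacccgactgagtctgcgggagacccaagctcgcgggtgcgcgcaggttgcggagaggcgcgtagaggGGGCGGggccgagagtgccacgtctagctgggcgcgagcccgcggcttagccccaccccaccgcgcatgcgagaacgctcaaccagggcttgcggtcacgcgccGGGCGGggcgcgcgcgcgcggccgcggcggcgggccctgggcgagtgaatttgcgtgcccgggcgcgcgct

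Apaf1 (1452870_at) had 2061, 2520 and 2069 in diabetic pools and 1953 and 1964 in control pools. Every diabetic pool lay above both controls, with diabetic replicate 2 well above the rest. The difference was 0.16 (SE 0.14, 95% interval -0.15 to 0.48, limma adjusted p = 0.999), and 0.07 without diabetic replicate 2. Groups did not overlap with the diabetic pools higher in 9.99% of all tested genes. Its dimmer probe set, below the filter, had 428.3, 325.9 and 215.2 in diabetic pools and 401.7 and 342.9 in control pools, a difference of -0.18.

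Casp9, at chr4:141793612-141815978, encodes the initiator caspase that the apoptosome activates. Its brightest probe set (1437537_at) had 2049, 2159 and 1758 in diabetic pools and 2051 and 2441 in control pools. The groups overlapped, since control replicate 1 lay among the diabetic pools. Casp9 differed by -0.17 (SE 0.15, 95% interval -0.50 to 0.17, limma adjusted p = 0.999), by -0.05 without control replicate 2 and by 0.03 without diabetic replicate 3 and control replicate 2 together.

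Its second probe set, 1426125_a_at, was at 583.7, 237.5 and 634.0 in diabetic pools and 510.3 and 413.3 in control pools. The third, 1457816_at, too dim for the test, ran the other way in the same array, with 173.9, 489.4 and 121.4 in diabetic pools and 229.4 and 126.2 in control pools. Diabetic replicate 2 was thus the lowest of the 5 arrays in one Casp9 probe set and the highest in another.

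**Figure D1:**
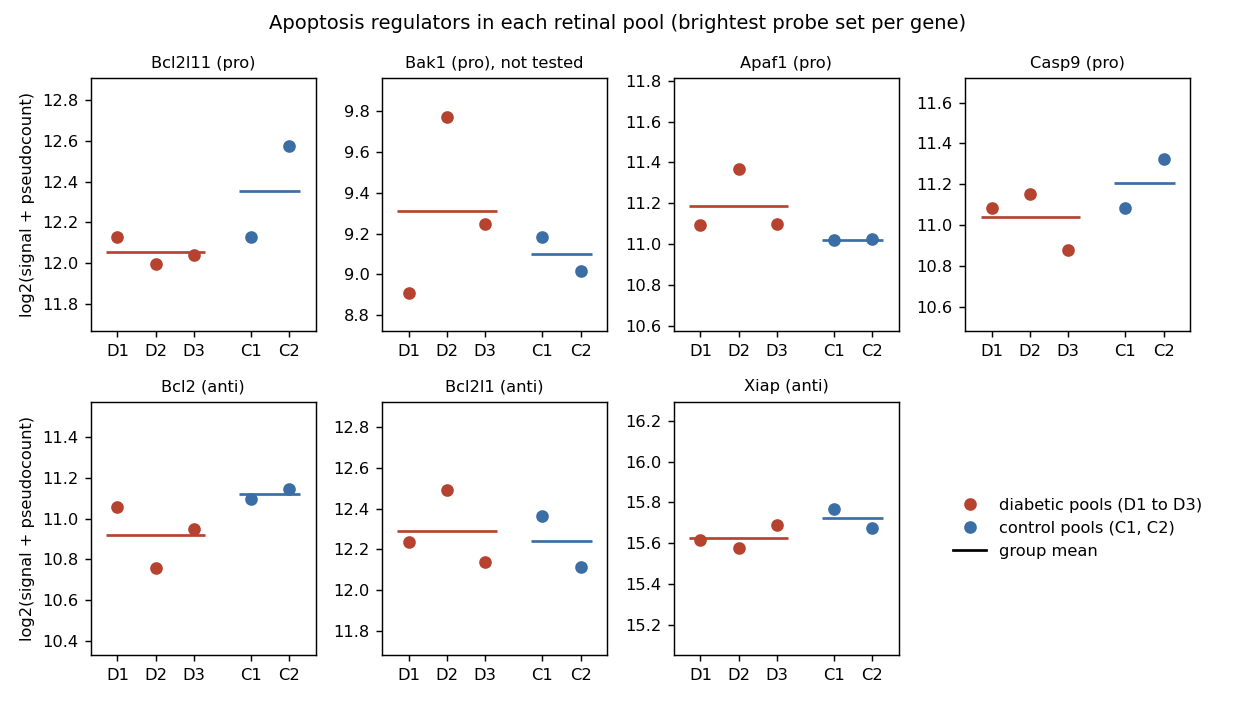
Level of each regulator on the log2(signal + pseudocount) scale (y axis, the same span of log2 units in each panel) in diabetic pools D1 to D3 and control pools C1 and C2 (x axis), by its brightest probe set. Points are pools and lines group means; Bcl2l11 is set apart by control replicate 2 at 12.57, and the diabetic pools do not overlap the controls in Apaf1, where they are higher, or in Bcl2, where they are lower.

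Of the Bcl-2 family, Bcl2l11 and Bcl2 had lower means in diabetic pools, Bak1 a higher mean, and Bcl2l1 differed little, with each 95% interval given below including 0. Bcl2l11, at chr2:128126038-128162547, encodes Bim, a BH3-only protein that triggers the mitochondrial step. FoxO transcription factors, which insulin signalling restrains, are known to induce it. The 250 bases before the first of its 2 annotated starts are shown because they hold the forkhead core GTAAACA, in capitals.

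Bcl2l11 promoter, chr2:128125788-128126037, plus strand: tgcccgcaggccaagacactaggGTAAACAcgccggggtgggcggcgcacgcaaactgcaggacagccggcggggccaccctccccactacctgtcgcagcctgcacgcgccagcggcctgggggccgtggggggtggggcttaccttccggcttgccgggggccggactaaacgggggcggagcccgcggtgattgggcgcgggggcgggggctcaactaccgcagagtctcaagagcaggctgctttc

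The core begins 227 bases before the start. On either strand it occurs in 3.17% of the 32851 promoter windows of the same length and in 1 of the 12 windows of the regulators. GC boxes were found in 7 of these 12 windows and in 32.7% of all. They lie 175 and 71 bases before the start of Apaf1 and 30 bases before the Xiap start shown above. A match of letters is a description and not evidence that a factor binds there.

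Bcl2l11 (1456005_a_at) had 4358, 3966 and 4090 in diabetic pools and 4357 and 5979 in control pools. Control replicate 1 was level with diabetic replicate 1, and only control replicate 2 stood out. The difference of -0.30 (SE 0.14, 95% interval -0.62 to 0.02, limma adjusted p = 0.999) was the largest in size among the tested regulators. Leaving out control replicate 2 gave -0.07, and leaving out control replicate 1 gave -0.52. Control replicate 2 also had the highest summed signal of the pigment epithelium markers given above. Its summed signal of 9 microglia markers was the highest as well (9691, against 6309 to 8244 in the other arrays). Of these 9, 4 were bright enough to test. The brightest, Csf1r, was highest in control replicate 2 (5145). The next, C1qb, was highest in diabetic replicate 2 (1289, against 1139 in control replicate 2). The part of both sets of markers in the Bcl2l11 value was not tested.

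Of the other 3 tested Bcl2l11 probe sets, 1 was likewise highest in control replicate 2. This was 1456006_at, with 722.2, 606.0 and 610.0 in diabetic pools and 705.0 and 740.1 in control pools, where the groups overlapped. The next brightest after 1456005_a_at, 1435448_at, had 3457, 3233 and 2705 in diabetic pools and 3491 and 3157 in control pools, where the highest value was in control replicate 1. The probe set 1435449_at had 624.2, 378.9 and 577.8 in diabetic pools against 715.4 and 643.0 in control pools, without overlap, and differed by -0.32 (95% interval -0.91 to 0.26). All 4 tested Bcl2l11 probe sets had differences below 0, between -0.32 and -0.09. The remaining one, 1426334_a_at, was too dim to test and differed by 0.01.

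Bak1, at chr17:27019812-27028627, encodes an effector that forms pores in the outer mitochondrial membrane. Its brighter probe set had 359.7, 754.9 and 486.9 in diabetic pools and 461.6 and 397.0 in control pools. The diabetic pools spanned the controls on both sides, with diabetic replicate 2 far above and diabetic replicate 1 below. In the probe set fit the difference was 0.21 (SE 0.30, 95% interval -0.49 to 0.91), and without diabetic replicate 2 it was -0.02. The dimmer Bak1 probe set, below the filter, had 206.0, 289.2 and 64.3 in diabetic pools and 75.2 and 269.7 in control pools. Its difference was 0.08.

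Bcl2, at chr1:106538176-106714290, encodes the founding anti-apoptotic protein of the family. Its brightest probe set (1457687_at) had 2011, 1613 and 1856 in diabetic pools and 2068 and 2141 in control pools. All diabetic pools lay below both controls, as in 8.16% of all tested genes. The difference was -0.20 (SE 0.14, 95% interval -0.52 to 0.12, limma adjusted p = 0.999), and -0.12 without diabetic replicate 2, the lowest pool. The other 3 tested Bcl2 probe sets overlapped between groups and differed by -0.21 to -0.06, and the fifth, too dim to test, by -0.14.

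Bcl2l1, at chr2:152758732-152833803, encodes Bcl-xL, an anti-apoptotic relative that supports the survival of many neurons. Its brightest probe set (1420888_at) had 4701, 5636 and 4391 in diabetic pools and 5151 and 4310 in control pools. Both groups covered much the same range, and the difference was 0.05 (SE 0.13, 95% interval -0.26 to 0.36, limma adjusted p = 0.999). The probe set 1420887_a_at had 2086, 1129 and 1945 in diabetic pools and 1819 and 1878 in control pools, and 1426191_a_at had 967.5, 462.3 and 955.4 in diabetic pools and 992.5 and 798.8 in control pools. In these, diabetic replicate 2 was the lowest array, while it was the highest in the brightest probe set. Without that array they differed by 0.12 and 0.10, against -0.14 and -0.20 with it.

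**Figure D2:**
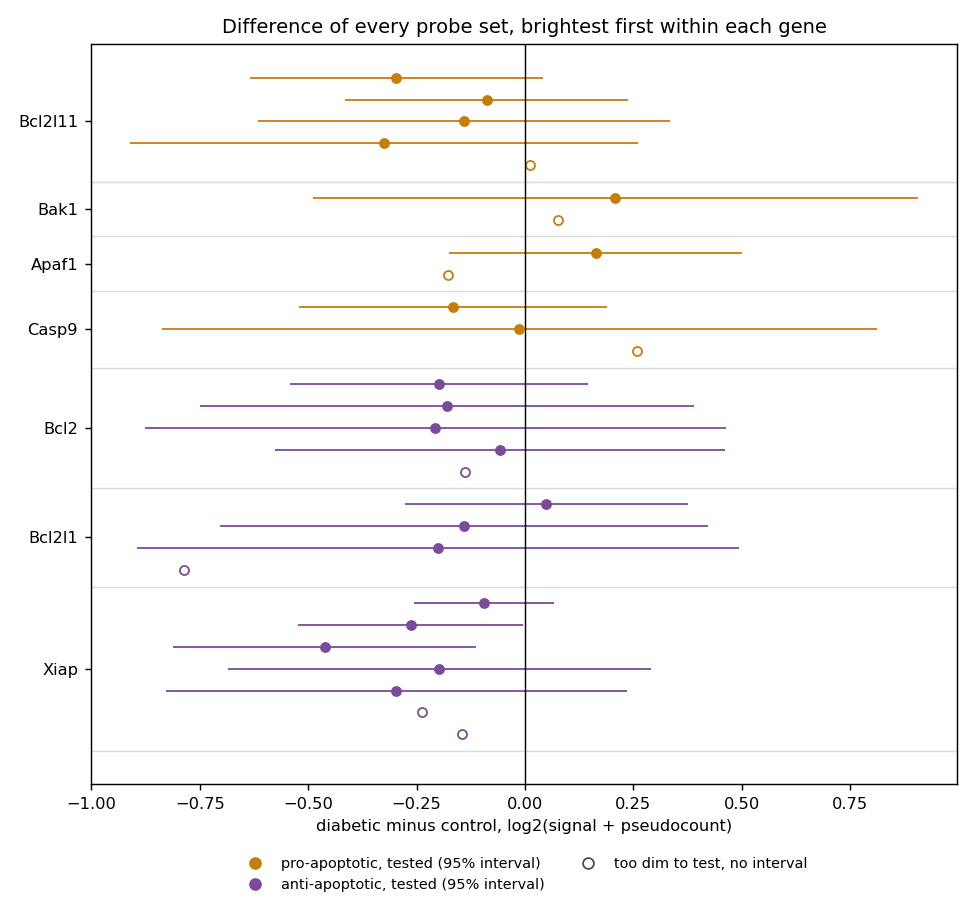
Difference of every probe set, diabetic minus control on the log2(signal + pseudocount) scale (x axis), by gene (y axis), with 95% intervals of the limma fit where the probe set was bright enough to test. All 7 Xiap points lie below 0, and the intervals of 2 of them exclude 0 before adjustment.

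Counted over probe sets, 17 of the 20 tested were lower and 3 higher in diabetic pools, by a median of -0.17, where 52.4% of all tested probe sets were lower. Of the anti-apoptotic genes 11 of 12 were lower, and of the pro-apoptotic genes 6 of 8. After centring on array medians 16 of 20 were lower, where 40.6% of all tested probe sets were, and without diabetic replicate 2 it was 15 of 20, where 49.3% were. The 12 anti-apoptotic probe sets come from 3 genes, so these counts describe few independent transcripts.

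The array of diabetic replicate 2 differed from the others in RNA measures as well as in these genes. For the beta-actin control probe sets, the 3' signal divided by the 5' signal gave 4.32 there and 2.01 to 2.71 elsewhere. The same ratio for the Gapdh control probe sets set it apart less, at 0.90 there and 0.78 to 0.84 elsewhere. Control probe sets for the small-subunit ribosomal RNA averaged 10030 there and 1795 to 2331 elsewhere. It was the lowest or highest of the 5 arrays in 14 of the 20 tested regulator probe sets, beside 52.8% of all tested probe sets. Within Casp9 and within Bcl2l1 its deviations had opposite signs, from -0.86 to 1.12 and from -1.02 to 0.28. They also lay on both sides of 0 within Apaf1 (-0.04 and 0.31), Xiap (-0.54 to 0.37) and, barely, Bcl2l11 (-0.60 to 0.02). Of these values, 1.12 in Casp9, -1.02 in Bcl2l1, -0.04 in Apaf1 and both in Xiap were of probe sets too dim to test. Among tested probe sets the signs were still opposite in Casp9 (-0.86 and 0.06) and Bcl2l1 (-0.84 to 0.28). Those of Xiap were all below 0 (-0.32 to -0.10), and Apaf1 had only 1 tested. The part of RNA quality in these values was not tested.

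**Figure D3:**
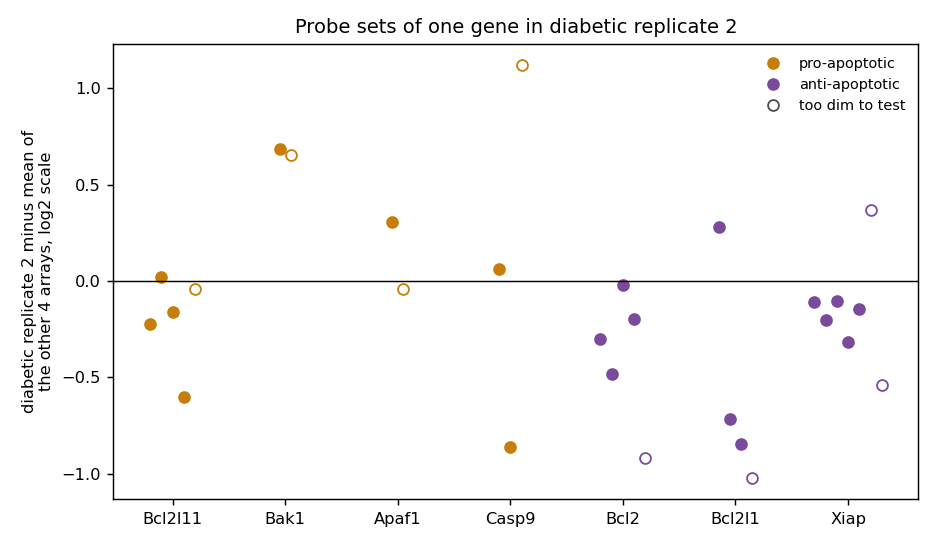
Log2 value of each probe set in diabetic replicate 2 minus the mean of the other 4 arrays (y axis), by gene (x axis), with open points for probe sets too dim to test. In Casp9, Bcl2l1, Apaf1, Xiap and Bcl2l11 the probe sets of 1 gene lie on both sides of 0, in Bcl2l11 only just, and in Apaf1 and Xiap only through open points.

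To set pro- against anti-apoptotic genes without comparing different probe sets as levels, each tested gene was expressed as its deviation from its own mean over the 5 arrays. The median difference was -0.17 over the 3 pro-apoptotic and -0.10 over the 3 anti-apoptotic genes, beside 0.01 over all tested genes. The mean deviation of the pro-apoptotic genes was -0.03, 0.04 and -0.13 in diabetic replicates 1 to 3 and -0.06 and 0.18 in control replicates 1 and 2. That of the anti-apoptotic genes was -0.01, -0.04 and -0.05 in the diabetic pools and 0.10 and -0.000607 in the control pools.

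Pro-apoptotic minus anti-apoptotic, the arrays stood at -0.02, 0.08 and -0.08 in diabetic pools and at -0.15 and 0.18 in control pools. The controls were thus the lowest and the highest of the 5, and all diabetic pools lay between them. Among 4 single pairs, the Apaf1 to Xiap balance was 0.02, 0.34 and -0.05 in diabetic pools and -0.20 and -0.11 in control pools, without overlap, a difference of 0.26 that was 0.14 without diabetic replicate 2. The Bcl2l11 to Bcl2 balance was -0.10, 0.06 and -0.08 in diabetic pools and -0.14 and 0.26 in control pools, with overlap and a difference of -0.10. The Bcl2l11 to Bcl2l1 balance had the largest difference of the 4 in size, at -0.35, with -0.01, -0.40 and -0.0047 in diabetic pools and -0.14 and 0.56 in control pools, also with overlap. The Casp9 to Xiap balance differed by -0.07, with overlap. Pairs were chosen for their roles, and no test was made of them. No share of non-overlapping pairs over all genes was computed to set beside them. The Apaf1 to Xiap balance uses the brightest Apaf1 probe set, while the dimmer one differed by -0.18. It also uses the Xiap probe set whose annotation could not be checked.

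**Figure D4:**
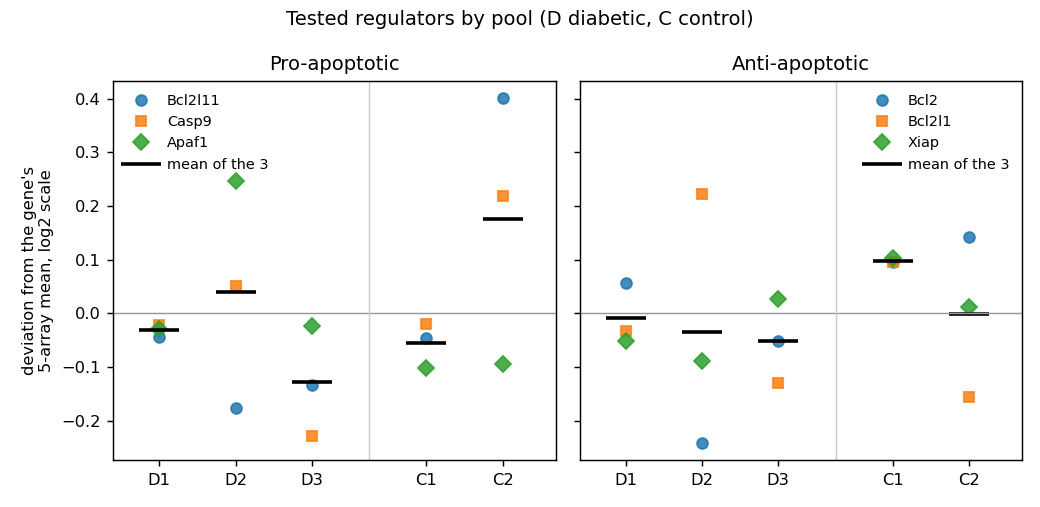
Deviation of each tested gene from its own 5-array mean on the log2 scale (y axis) by pool (x axis), for pro-apoptotic genes (left) and anti-apoptotic genes (right), with bars for the mean of the 3. The pro-apoptotic mean is highest in control replicate 2 at 0.18 and lowest in diabetic replicate 3 at -0.13.

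Variation over the 5 arrays was largest for Bcl2l11 (SD 0.23 log2 units) and smallest for Xiap by its brightest probe set (SD 0.07), with Casp9, Bcl2l1, Bcl2 and Apaf1 between 0.14 and 0.16. The median over all tested genes was 0.13. Genes with the most similar pattern were sought by the root-mean-square difference of centred log2 values over the 5 arrays, among 10506 candidates. Nearest to Bcl2l11 were Fam160a2 (0.04), Stk36 (0.04) and Fbf1 (0.05). All of them were likewise highest in control replicate 2, with Stk36 at 11.06, 10.87 and 10.91 in diabetic pools and 11.04 and 11.38 in control pools. Nearest to Casp9 were Ddx56 (0.02), Plek (0.03) and Csrp2 (0.03), each lowest in diabetic replicate 3 and highest in control replicate 2. Genes chosen for a like pattern share such extremes by that choice, so they add no separate result.

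Other genes of the same pathways were measured in 8 lists of 93 genes, of which 84 had a probe set and 54 were tested. None of these 54 passed (limma adjusted p of 0.999 or more), 32 were higher and 22 lower, the median difference was 0.02, and 2 had an unadjusted p under 0.05. Groups did not overlap in 5 higher and 4 lower genes, beside 9.99% and 8.16% of all tested genes.

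In the Bcl-2 family, Mcl1, an anti-apoptotic protein with rapid turnover, differed by 0.08 (95% interval -0.13 to 0.28) and Bcl2l2, which encodes Bcl-w, by -0.07 (-0.37 to 0.24). They were the only anti-apoptotic relatives bright enough to test. Of 4 tested BH3-only and effector genes 3 were higher, with a median of 0.14. Among them, Bnip3, a mitochondrial protein induced by hypoxia, had 25069, 26523 and 24569 in diabetic pools and 23445 and 23016 in control pools, a difference of 0.13 (-0.04 to 0.29). Bmf, a BH3-only protein, differed by 0.18 (-0.27 to 0.63) and overlapped between groups.

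Downstream of the mitochondrion, the 8 genes of released proteins and outer membrane channels had a median of -0.02, with 3 higher and 5 lower. Aifm1, which encodes the flavoprotein apoptosis-inducing factor, had 4885, 6088 and 6142 in diabetic pools and 6393 and 6802 in control pools, a difference of -0.21 (-0.49 to 0.07) that was -0.11 without diabetic replicate 1. The channel gene Vdac1 differed by 0.09 (-0.08 to 0.27). Of 7 tested caspase and nuclease genes 5 were higher, with a median of 0.02.

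Casp6, an executioner caspase, had 703.2, 792.7 and 1061 in diabetic pools and 638.2 and 657.1 in control pools, a difference of 0.32 (-0.20 to 0.85), and 0.17 without diabetic replicate 3. Dffa, the inhibitor of the caspase-activated DNase, differed by 0.16 (-0.08 to 0.41). Both tested relatives of Xiap were lower. Birc2, which encodes the ubiquitin ligase cIAP1, had 8786, 8492 and 8847 in diabetic pools and 9206 and 9538 in control pools, a difference of -0.10 (-0.29 to 0.09). Birc6, a very large member of that family, differed by -0.04 (-0.30 to 0.22).

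Genes of DNA damage signalling included those with the smallest p of the 54. Of 16 tested genes that this response induces, 11 were higher and 5 lower, with a median of 0.05 (0.13 without control replicate 1 and -0.02 without diabetic replicate 3 and control replicate 2). Zmat3, a zinc finger protein that binds RNA, had 3478, 4251 and 3875 in diabetic pools and 2665 and 2703 in control pools. Every diabetic pool lay well above both controls, a difference of 0.50 (SE 0.12, 95% interval 0.23 to 0.78, unadjusted p = 0.00265, limma adjusted p = 0.999), between 0.43 and 0.58 with single arrays left out. Perp, a desmosomal protein that can promote apoptosis, had 779.1, 613.1 and 683.4 in diabetic pools and 912.6 and 1297 in control pools, a difference of -0.58 (SE 0.22), and -0.35 without control replicate 2.

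Of 8 tested kinases and regulators of that response 5 were higher, with a median of 0.02. Mdm2, a ubiquitin ligase, differed by -0.10 (-0.42 to 0.21) and Trp53bp2 by 0.09 (-0.15 to 0.33). In the death receptor pathway 4 genes were higher and 4 lower, with a median of -0.01. Tnfrsf21, a death receptor of neurons, had 2200, 1826 and 1942 in diabetic pools and 1684 and 1602 in control pools, a difference of 0.26 (-0.06 to 0.57). Tradd, an adaptor of the tumour necrosis factor receptor, differed by -0.34 (-0.99 to 0.32), and by -0.08 without diabetic replicate 1.

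**Figure D5:**
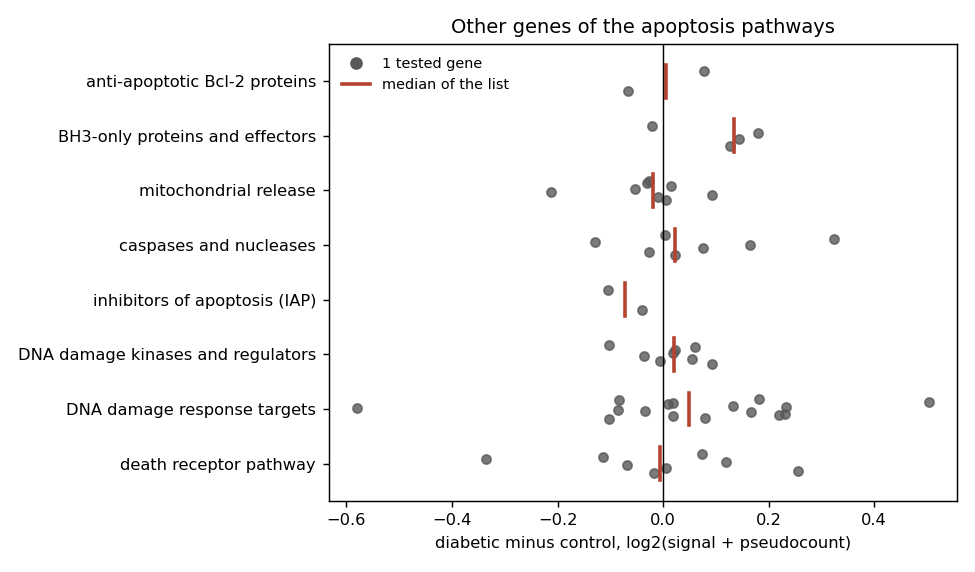
Difference of each tested gene, diabetic minus control on the log2(signal + pseudocount) scale (x axis), in the 8 lists of pathway genes (y axis), with a bar at the median of each list. Medians run from -0.07 for the inhibitor of apoptosis list to 0.14 for the BH3-only and effector list, and Zmat3 at 0.50 and Perp at -0.58 lie farthest out.

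The tissue of the pools was checked by markers. Rod photoreceptor genes were bright in every array, with summed signals of 643239 to 714269 in diabetic pools and 630307 to 712749 in control pools, and all 9 with a probe set were bright enough to test. So were all 8 markers of ganglion cells, all 10 of bipolar and amacrine cells and all 8 of Muller glia that had a probe set. Skeletal muscle markers had summed signals of 91590 in diabetic replicate 3 and 59994 in control replicate 2, against 5772 to 6663 in the other 3 arrays. Melanosome markers were also high in these 2 arrays (15094 and 20269) and in diabetic replicate 1 (23636), against 3531 and 5966. The summed signal of pigment epithelium markers was lower in all diabetic pools than in the controls, as given beside Xiap. The brightest Bcl2 probe set had the same order of groups, as did Perp, Aifm1, Birc2 and Fadd of the pathway lists and 8.16% of all tested genes. The part of pigment epithelium cells in these values was not tested. None of the blood, lens or cornea markers was bright enough to test by its mean signal. The cornea marker Krt12 was uneven, with 1123, 245.2 and 861.7 in diabetic pools and 268.5 and 184.5 in control pools. Summed signals of lens and cornea markers were 1677, 1158 and 1462 in diabetic pools and 1314 and 834.7 in control pools. Without the 2 arrays of high muscle signal, the differences were -0.07 for Bcl2l11, 0.16 for Bak1, 0.21 for Apaf1, -0.19 for Bcl2, -0.001026 for Bcl2l1 and -0.17 for Xiap, from a comparison of 2 diabetic pools with 1 control pool.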

How the data were processed

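Retinal RNA of 3 diabetic and 2 control pools was measured on 1 array each, and groups and replicate numbers came from the sample titles. The deposited values are linear signals per probe set; the software behind them, and so the background correction of dim probe sets, is not given in the sources used here. Each of the 5 deposited signal columns had the same mean of 2500 without its lowest and highest 2% of values. Old symbols were replaced, by Entrez ID, with those of the RefSeq genes of GRCm38.p6 for 34741 of the 34945 probe sets with 1 symbol. The pseudocount of 120.6 is the 20th percentile of all signals. The deposited scaling was kept, since log2 medians of the arrays lay within 0.15 of each other, closer than the 0.2 allowed.

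Differences were tested with limma 3.58.1 (lmFit, eBayes with a trend, 3 residual degrees of freedom) in R 4.3.3, with Benjamini-Hochberg adjustment over all genes, or all probe sets, in the upper 60% by mean signal. A p-value compares pools, and the number of arrays limits the precision. The steps were tested on simulated data. The regulators, lists and tests were chosen with earlier results of these data known. All regulators were to be named, with the 2 genes of smallest p in each list and the 2 brightest of each marker list. Of the marker lists summed signals are given here, and single values only for Ttr, Csf1r, C1qb and Krt12. The 3 genes most like each of the 2 most variable regulators were to be named too. Promoter sequences are RefSeq's (GRCm38.p6) and were found for all 7 genes. No genome was used. Alternatives covered scaling, pseudocounts, filters, the gene level, the variance model, a replicate block and left-out arrays.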

Additional observations from a re-analysis of the deposited data

How the results depend on the processing

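No regulator passed the threshold under any of the 16 alternatives, which covered each array left out in turn. Not all were tested in each: Bak1 was tested only without the filter. Casp9, Apaf1 and Bcl2 were not tested when the filter kept the upper 40%. Over all genes the count of 0 (364 at an unadjusted p under 0.05) became 2 with a replicate block (Rgr and Spc25), 2 without the 2 arrays of high muscle signal (Npl and Spc25), and 0 to 1 with single arrays left out (Prss22 without diabetic replicate 2, Spc25 without diabetic replicate 3). Rgr, Npl, Spc25 and Prss22 fall outside the rule for named genes and were chosen after seeing these values. The replicate numbers name pools of different mice, so they were not taken as pairs. Deviations of same-numbered pools correlated at 0.19 and -0.22. The deviations of 2 controls mirror each other, so these correlations cannot decide on pairing. The block changed no call of a regulator.

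The median over the tested pro-apoptotic genes was -0.17 in the fit reported, -0.0016 without the filter, which adds Bak1, -0.0074 with the mean over probe sets, 0.034 without both arrays of high muscle signal, and -0.285 to -0.0472 with single arrays left out. That over the anti-apoptotic genes was -0.10 in the fit reported, -0.0523 after centring on array medians, -0.24 with the mean over probe sets, -0.17 without both arrays of high muscle signal, -0.20 with Xiap by its next brightest probe set, an alternative chosen after seeing the data, and -0.141 to -0.0496 with single arrays left out. The sign turned for Casp9 with the mean over probe sets (0.0264) and without both arrays of high muscle signal (0.034), for Apaf1 with the mean over probe sets (-0.0074), and for Bcl2l1 with the mean over probe sets (-0.27), without both arrays of high muscle signal (-0.001026) and with single arrays left out (-0.0756 to 0.175), and for Bak1, which has no test at the gene level, without diabetic replicate 2 (-0.0233, against 0.21 in the fit reported). The mean over probe sets gives dim probe sets equal weight; other causes were not tested. At the gene level, Bcl2l11, Bcl2 and Xiap kept differences below 0 under every alternative run. Single probe sets of Bcl2 and Bcl2l11 did not all do so. With single arrays left out, tested Bcl2 probe sets reached 0.03 (1437122_at), 0.04 (1440770_at) and 0.06 (1443837_x_at), and 1435448_at of Bcl2l11 reached 0.01. Without both arrays of high muscle signal, 2 of the 4 tested Bcl2 probe sets were lower in diabetic pools. Fits without a control pool rest on 1 control array and assume that it varies like the rest.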

Other observations

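The dimmest Bcl2l1 probe set (1426050_at), below the filter and singled out after its values were seen, had signals of 17.2, 10.9 and 237.4 in diabetic replicates 1 to 3 and 202.1 and 200.4 in the control pools. Diabetic replicates 1 and 2 were thus below diabetic replicate 3 and both controls, a step that none of the other 3 Bcl2l1 probe sets showed. The brightest of those had 4701, 5636 and 4391 in diabetic pools and 5151 and 4310 in control pools. The signals of 17.2 and 10.9 lay far below the pseudocount, and the background correction of such dim values is not known. On the log2 scale they were 7.11 and 7.04, against 8.48 in diabetic replicate 3 and 8.33 in both controls. The difference was -0.79 (SE 0.46, 95% interval -1.86 to 0.29) in a fit without the filter. The share of probe sets with such a split was not computed, and the part of diabetes duration was not tested.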
